A study of Mus musculus with 7 samples.

Results

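Of the 55401 genes in the count table, 10 genes of BMP and activin signalling were followed in the lungs of bleomycin-challenged mice with or without hyperbaric oxygen (HBO). They were the BMP ligands Bmp2, Bmp4, Bmp5 and Bmp6, the receptor Bmpr2, the activin subunits Inhba and Inhbb, the secreted antagonists Fst and Grem1, and the target gene Id1. The genes were taken as a list of names, and all 10 were found and passed the filter on low counts. All 7 mice were C57BL/6 males, 6 to 8 weeks old and 20 to 25 g in weight, and all had received bleomycin, a DNA-damaging agent that leads to lung fibrosis after instillation. In the BLM+HBO group, 3 mice breathed oxygen at 2.5 atmospheres absolute (ATA) for 90 min a day in 14 daily exposures that began at day 7. The other 4 mice formed the BLM group. The series record puts the BLM mice into the chamber without oxygen under pressure, whereas the supplementary methods call them untreated, so a difference in handling cannot be told apart from the HBO exposure. RNA came from the right lung lobes at day 21. Lungs without bleomycin were not analysed here, so every difference stands between injured lungs.

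BMPs and activins are secreted dimers of the TGF-β superfamily that bind pairs of type I and type II serine/threonine kinase receptors. BMP receptors pass the signal to SMAD1, SMAD5 and SMAD9 and raise the ID genes, whereas activin receptors act through SMAD2 and SMAD3, the SMADs that TGF-β also uses. Secreted antagonists bind the ligands outside the cell, gremlin-1 mainly BMPs and follistatin mainly activins. In the lung, BMPR2 is best known for its loss in pulmonary arterial hypertension, and gremlin-1 and activin A are known from fibrotic tissue.

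Library totals ran from 18157161 to 26365969 counts, a depth at which the lowest member value, Grem1 at 2.02 CPM in BLM+HBO mouse 1, rested on 38 counts. CPM are counts brought to a common library size, here with TMM factors. Markers of lung were high in every mouse, with 4549 to 16262 CPM for the surfactant gene Sftpc, 4844 to 17061 for the club cell gene Scgb1a1, 1545 to 2677 for the AT1 gene Ager and 503 to 720 for the endothelial gene Cdh5. On the first principal component of all tested genes, the BLM mice lay between -47.6 and -6.08, and BLM+HBO mice 1 and 3 at 54.8 and 37.8. BLM+HBO mouse 2 lay apart from its group at -0.996. Values without this mouse are given beside the results it changes. It was picked out by this position, the closest of its group to BLM, so leaving it out favours a difference between the groups. P values from fits without this mouse carry that choice. Raw counts were also compared between pairs of libraries, by chi-square per gene over genes with at least 20 counts. BLM+HBO mouse 2 differed from BLM mice 3 and 4 by 19 and 13, whereas pairs within a group differed by 22.1 or more. From BLM+HBO mice 1 and 3 it differed by 64.3 and 57.5. The reason was not tested. Of 8 tested heart muscle genes, 7 were called higher in BLM+HBO, where 3.40% of all 17465 tested genes were, and all 8 had log2 fold changes above 0. The 9 heart muscle genes of the list, with Myl2 that was not tested, summed to 67.6 to 186 CPM in BLM. In BLM+HBO mice 1, 2 and 3 they summed to 667, 533 and 158 CPM. Their part in the results was not tested.

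The widest differences in group means among the 10 genes were those of Fst, Inhba and Grem1, an activin subunit and both antagonists, and the absolute log2 fold changes of the other 7 genes were 0.40 or less. A gene was called where its fold change exceeded 1.5 and its P before adjustment was below 0.05. Fst was the single member called, and it was lower in BLM+HBO. By edgeR, 1 of the 10 members was thus called lower and 0 higher, whereas 2.89% of the 17465 tested genes were called lower and 3.40% higher. Both directions together came to 6.29% of all tested genes, so 1 call among 10 genes lay close to the background. The median log2 fold change of the members was -0.09, against 0.01 over all tested genes, and 8 of the 10 values were below 0, against 48.8% of all. After Benjamini-Hochberg adjustment over all tested genes, edgeR called 0 members and 0 of all tested genes, and 1 member had an unadjusted P below 0.05, against 10.7% of all. Past the unadjusted thresholds DESeq2 called 0 members and 4.25% of its 32868 genes, and limma 3 members and 6.68% of the 17465 genes. The DESeq2 genes were not filtered on low counts, so its share has another base than those of edgeR and limma. At an adjusted P below 0.05 both called 0 members, with 0.918% of the 16886 genes given an adjusted P by DESeq2 and 0 by limma. Without BLM+HBO mouse 2, 4 members (Fst, Inhba, Grem1 and Bmp6) were past the unadjusted thresholds by edgeR, against 10.7% of all genes in that fit, and 3 of them (Fst, Inhba and Grem1) passed after adjustment, against 1.49% of all. None of the 10 members had groups that did not overlap, a pattern that 8.77% of all tested genes showed. With fewer mice more genes separated: 4 members without BLM+HBO mouse 2, against 25.2% of all, 2 without BLM mouse 4 (16.3% of all) and 1 without BLM mouse 2 (11.5% of all).

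**Figure D1:**
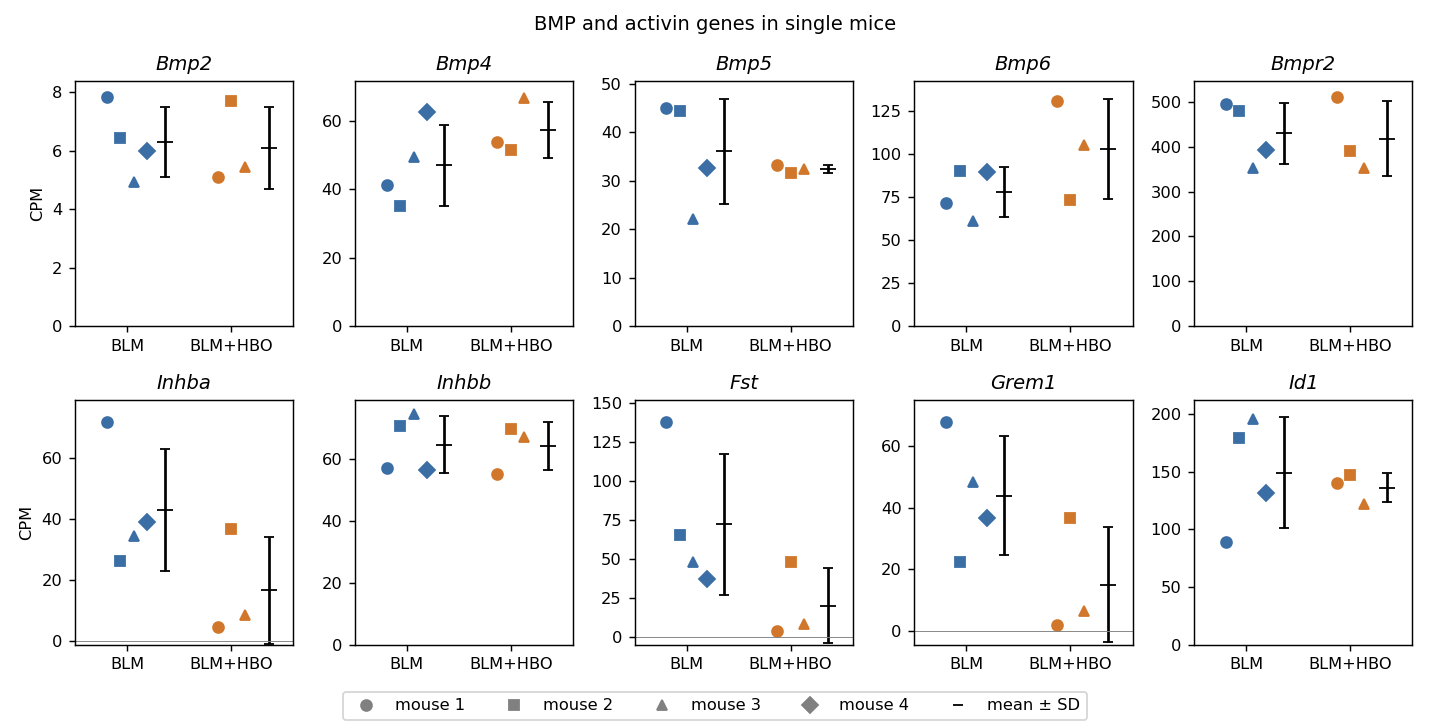
Levels of the 10 genes in each mouse, in CPM, with BLM in blue and BLM+HBO in orange, marker shapes for the mouse numbers of each group and black bars for the mean ± SD. Fst, Inhba and Grem1 were low in BLM+HBO mice 1 and 3 and within or near the BLM range in mouse 2, and for these genes the lower bar reaches below 0 because the SD exceeds the mean.

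Follistatin, the product of Fst, binds activins almost irreversibly and blocks their receptor contact. Fst (chr13:114452290-114458951 in GRCm38, minus strand) measured 138, 65.6, 48.3 and 37.7 CPM in BLM mice 1 to 4 and 4.15, 48.1 and 8.89 CPM in BLM+HBO mice 1 to 3. BLM+HBO mice 1 and 3 were below every BLM mouse, and mouse 2 fell between BLM mice 3 and 4, so the groups overlapped. The BLM mean was 72.3 ± 45.0 CPM (SD, n = 4), and the BLM+HBO mean was 20.4 ± 24.1 CPM (SD, n = 3). Fst fell by 1.83 on the log2 scale (SE 0.75, 95% interval -3.51 to -0.14), a level 3.55-fold higher in BLM, with an edgeR P of 0.0365 and an adjusted P of 0.452. An exact two-sided permutation test over the 35 ways to assign the labels gave a P of 0.0571, where 0.0286 is the smallest value this design allows. The call was lost with DESeq2, whose P was 0.0502, with robust estimation in edgeR at a P of 0.0641, and when BLM mouse 1 or 2 or BLM+HBO mouse 1 or 3 was left out, with edgeR P values of 0.106, 0.0521, 0.0814 and 0.114. Without BLM+HBO mouse 2 the log2 fold change was -3.45, with an adjusted P of 0.0316 by edgeR, and over 15 alternative settings the adjusted P ran from 0.0204 to 0.802. Part of Fst overlaps Gm47040 on the other strand, and reads falling in both genes were not counted.

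Inhba encodes the βA subunit, which pairs with itself to form activin A. Inhba (chr13:16011851-16031621, plus strand) had 71.8, 26.3, 34.5 and 39.1 CPM in BLM mice 1 to 4, and 4.52, 36.7 and 8.59 CPM in BLM+HBO mice 1 to 3. Again BLM+HBO mice 1 and 3 were below all BLM mice, and mouse 2 lay inside the BLM range. The group means were 42.9 ± 19.9 CPM (SD, n = 4) and 16.6 ± 17.5 CPM (SD, n = 3). The log2 fold change of Inhba was -1.37 (SE 0.62, 95% interval -2.77 to 0.03) and did not pass, with an edgeR P of 0.0541 and an adjusted P of 0.471. By exact permutation the P was 0.0857. Inhba was past the thresholds without BLM+HBO mouse 2, at a log2 fold change of -2.70 and an adjusted P of 0.0308, without BLM mouse 2 at an edgeR P of 0.0463, with limma and without the filter on low counts. Over 15 alternative settings its adjusted P was between 0.0308 and 0.802.

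Inhbb encodes the βB subunit of activin B and showed no such split among the mice. Inhbb (chr1:119415465-119422248, minus strand) was at 57.0, 70.8, 74.5 and 56.4 CPM in BLM and at 55.3, 69.8 and 67.2 CPM in BLM+HBO. Its group means of 64.7 ± 9.34 CPM (SD, n = 4) and 64.1 ± 7.73 CPM (SD, n = 3) differed by a log2 fold change of -0.01 (SE 0.14), with a 95% interval of -0.32 to 0.30. The interval leaves room for a difference of that size in either direction. Per length, the Inhbb level was 1.19 to 4.04 times that of Inhba in the BLM mice, and 18.4, 2.85 and 11.8 times in BLM+HBO mice 1, 2 and 3. Inhba per Fst, the activin A subunit against its antagonist, was 0.288 to 0.745 in BLM and 0.548 to 0.783 in BLM+HBO, with overlapping groups.

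Gremlin-1, the product of Grem1, binds BMP2 and BMP4 and keeps them from their receptors. Grem1 (chr2:113746164-113758646, minus strand) was at 68.0, 22.3, 48.5 and 36.7 CPM in BLM mice 1 to 4 and at 2.02, 36.5 and 6.52 CPM in BLM+HBO mice 1 to 3. The pattern was that of Inhba and Fst, with BLM+HBO mice 1 and 3 below the lowest BLM mouse and mouse 2 within the BLM range. Grem1 averaged 43.9 ± 19.3 CPM (SD, n = 4) without HBO, against 15.0 ± 18.7 CPM (SD, n = 3) with it. Its log2 fold change of -1.55 (SE 0.76, 95% interval -3.26 to 0.16) did not pass, with an edgeR P of 0.0709 and an adjusted P of 0.503. The exact permutation P was 0.0571. Leaving out BLM+HBO mouse 2 gave Grem1 a log2 fold change of -3.32 and an adjusted P of 0.0308, in a range of 0.0308 to 0.807 over 15 alternative settings, and limma and the fit without the filter on low counts also called it. Bmp4 per Grem1, the ligand against its antagonist per length, was 1.11 to 3.14 in BLM and 49.2, 2.60 and 18.8 in BLM+HBO mice 1, 2 and 3, so the groups overlapped at mouse 2.

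The promoters of Inhba and Grem1, which shared this pattern over the mice, are shown with those of Inhbb, the other activin subunit, and Bmp4, a ligand that gremlin-1 binds. RefSeq promoter entries (GRCm38.p6) matched 7 of the 10 genes. The 250 bases before each start are printed 5′ to 3′ in the sense of the transcript, with motif matches in capitals. The windows are chr13:16011601-16011850 (plus strand) for Inhba, chr2:113758649-113758898 (minus strand) for Grem1, chr1:119422249-119422498 (minus strand) for Inhbb and chr14:46390670-46390919 (minus strand) for Bmp4.
Inhba: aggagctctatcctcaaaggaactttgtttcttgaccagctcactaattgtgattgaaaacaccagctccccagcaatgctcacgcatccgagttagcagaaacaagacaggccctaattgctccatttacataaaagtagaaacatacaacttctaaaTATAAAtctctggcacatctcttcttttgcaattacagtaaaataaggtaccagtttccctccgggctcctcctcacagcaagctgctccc
Grem1: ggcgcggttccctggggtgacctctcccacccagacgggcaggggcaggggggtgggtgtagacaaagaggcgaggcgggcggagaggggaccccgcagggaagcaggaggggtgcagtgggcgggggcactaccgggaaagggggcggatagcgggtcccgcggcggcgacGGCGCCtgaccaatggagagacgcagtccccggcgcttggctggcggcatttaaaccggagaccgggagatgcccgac
Inhbb: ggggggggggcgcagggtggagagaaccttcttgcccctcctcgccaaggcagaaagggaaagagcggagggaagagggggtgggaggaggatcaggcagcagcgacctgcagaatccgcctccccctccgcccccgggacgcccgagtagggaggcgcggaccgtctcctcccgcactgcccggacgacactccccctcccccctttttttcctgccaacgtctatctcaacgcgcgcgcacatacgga
Bmp4: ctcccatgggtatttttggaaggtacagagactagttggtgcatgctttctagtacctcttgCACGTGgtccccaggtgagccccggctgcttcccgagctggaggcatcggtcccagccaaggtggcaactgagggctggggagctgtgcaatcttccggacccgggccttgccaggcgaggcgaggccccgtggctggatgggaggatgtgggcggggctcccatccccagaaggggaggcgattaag
The motifs searched on both strands were ACGTG (the core of the hypoxia response element), TGANTCA (AP-1), GGCGCC and GTCTAGAC (both bound by SMADs) and TATAAA (the sequence of the TATA box). A match was counted at any position of the window, and whether it acts as the named element was not tested. Inhba held TATAAA 91 bases before its start, a motif found in 12.4% of the 32851 RefSeq promoters at the same length. Grem1 held GGCGCC 78 bases before its start, as 9.59% of promoters did. Bmp4 held the palindrome CACGTG, where ACGTG matches overlap on both strands, and 16.6% of promoters had ACGTG. Inhbb held none of the 5 motifs, and TGANTCA (6.75% of promoters) and GTCTAGAC (0.167%) were in none of these 4 windows. GC content was 43.2% for Inhba against 72% for Grem1, 68% for Inhbb and 63.2% for Bmp4, with a median of 52.4% over all promoters.

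Among the BMP ligands, no member passed the thresholds. Bmp6, a BMP that endothelial cells of several organs secrete, was at 71.5, 90.0, 60.8 and 89.7 CPM in BLM and 131, 73.1 and 105 CPM in BLM+HBO. BLM+HBO mice 1 and 3 were above all BLM mice, and mouse 2 was within their range. The Bmp6 means of 78.0 ± 14.3 CPM (SD, n = 4) and 103 ± 29.1 CPM (SD, n = 3) gave a log2 fold change of 0.40 (SE 0.20, 95% interval -0.06 to 0.86). The edgeR P was 0.0791, the adjusted P 0.514 and the exact permutation P 0.257. Without BLM+HBO mouse 2, Bmp6 was past the thresholds with a log2 fold change of 0.60, a P of 0.00858 and an adjusted P of 0.14, the lowest over 15 alternative settings, which reached 0.855. Bmp6 overlaps Txndc5 on the other strand.

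Bmp4, which patterns the embryonic lung and is made by mesenchymal and endothelial cells, had 41.1, 35, 49.5 and 62.4 CPM in BLM and 53.9, 51.3 and 66.6 CPM in BLM+HBO. The ranges overlapped, with a log2 fold change of 0.29 (SE 0.19, 95% interval -0.14 to 0.71) and an adjusted P of 0.614. Bmp5, a ligand close to BMP6 and BMP7 in sequence, had 44.9, 44.4, 22.1 and 32.6 CPM in BLM. In BLM+HBO, Bmp5 lay at 33.1, 31.6 and 32.4 CPM, all inside the BLM range. The log2 fold change of Bmp5 was -0.15 (SE 0.22, 95% interval -0.65 to 0.34), with an adjusted P of 0.834. Bmp2, a close relative of Bmp4, was the lowest of the 10 genes per length, at 7.82, 6.43, 4.94 and 6.00 CPM in BLM and 5.11, 7.71 and 5.44 CPM in BLM+HBO. The groups covered nearly the same range, with a log2 fold change of -0.05 (SE 0.24, 95% interval -0.59 to 0.49) and an adjusted P of 0.958.

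Bmpr2, the type II receptor for BMPs, had 496, 479, 353 and 392 CPM in BLM and 512, 390 and 352 CPM in BLM+HBO. Both the highest and the lowest of the 7 values were in BLM+HBO. Its log2 fold change was -0.04 (SE 0.17, 95% interval -0.42 to 0.34), with an adjusted P of 0.953. Id1, an inhibitor of basic helix-loop-helix factors and the standard transcriptional readout of BMP receptors, had 89.4, 179, 196 and 132 CPM in BLM. In BLM+HBO, Id1 was at 140, 147 and 122 CPM, inside the BLM range. The log2 fold change of Id1 was -0.13 (SE 0.23, 95% interval -0.65 to 0.40) and the adjusted P 0.877.

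Levels of different genes were compared per kilobase of exon. Id1 stood highest at a mean of 124 CPM per kb over the 7 mice and was above the next gene in 7 of 7. Bmpr2 (23.6), Bmp4 (22.9) and Bmp6 (22.8 CPM per kb) had no constant order, since Bmpr2 exceeded Bmp4 in 3 of 7 mice and Bmp4 exceeded Bmp6 in 4 of 7. Inhbb followed at 15.1, Fst at 10.9, Bmp5 at 8.55, Grem1 at 7.59, Inhba at 4.95 and Bmp2 at 1.75 CPM per kb. Fst exceeded Bmp5 in 5 of 7 mice, Bmp5 exceeded Grem1 in 3 of 7 and Inhba exceeded Bmp2 in 5 of 7. The Fst level spanned 0.905 to 30.0 CPM per kb and that of Grem1 0.488 to 16.4, whereas Inhbb stayed between 13 and 17.5.

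**Figure D2:**
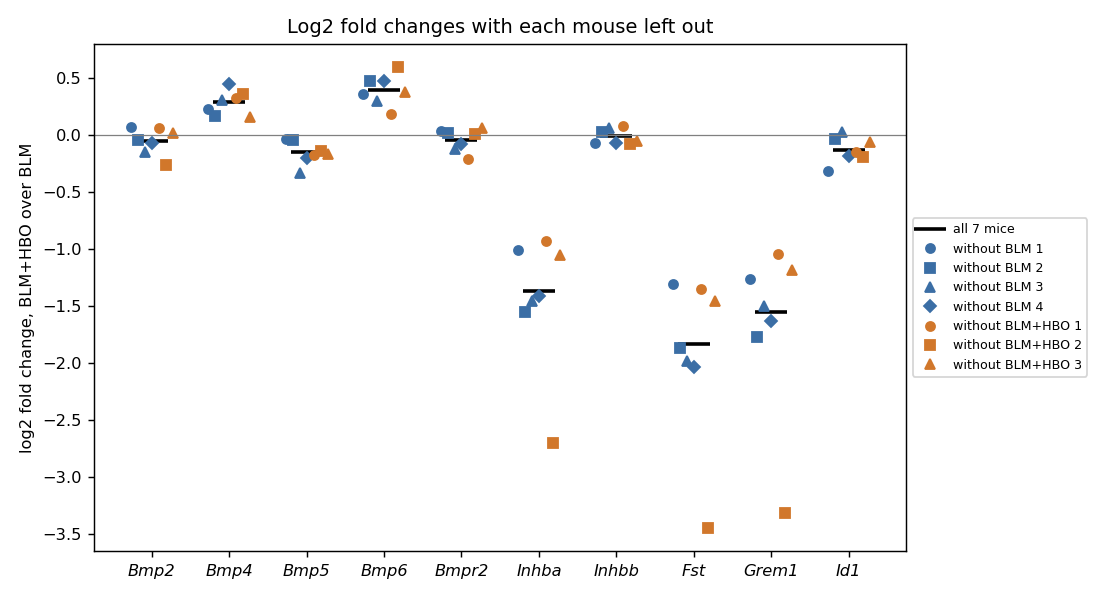
Log2 fold change (BLM+HBO over BLM) of each gene with all 7 mice (black bar) and with each mouse left out (points), blue for BLM and orange for BLM+HBO mice. Without BLM+HBO mouse 2 the values of Inhba, Fst and Grem1 moved to -2.70, -3.45 and -3.32, and Bmp2, Bmpr2, Inhbb and Id1 lay on both sides of 0.

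The wider pathway was read from lists of 70 genes by role, members included, of which 54 were tested. Of these, 6 were called lower and 0 higher (11.1%, against 6.29% of all tested genes), with a median log2 fold change of -0.10. At an adjusted P below 0.05 edgeR called 0 of the 54, against 13 at an unadjusted P below 0.05, which 10.7% of all tested genes reached. Past the unadjusted thresholds DESeq2 called 4 of the 54 and limma 8, against 6.68% of all tested genes by limma. The DESeq2 share of 4.25% covers 32868 genes without the filter on low counts, so it is no like background for the 54. The extracellular antagonists held 5 of the 6 calls, namely Fst, Nog, Fstl1, Fstl3 and Bmper, out of 12 tested antagonists with a median of -0.47. Leaving out the members Fst and Grem1, 4 of 10 antagonists were called lower, with a median of -0.18. The number of calls among the 54 went to 1 without BLM mouse 1, to 1 without BLM+HBO mouse 1 and to 14 without BLM+HBO mouse 2, where 10.7% of all genes were called.

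Noggin (Nog), which binds BMP2 and BMP4, was at 8.48, 6.93, 9.33 and 4.53 CPM in BLM and 0.692, 5.12 and 2.85 CPM in BLM+HBO. It fell by 1.33 on the log2 scale (SE 0.53), with an edgeR P of 0.0315 and an adjusted P of 0.441. Bmper, which binds BMPs and modulates them in endothelium, measured 72.0, 50.2, 32.0 and 37.6 CPM in BLM and 15.4, 43.7 and 16.1 CPM in BLM+HBO. For Nog and Bmper alike, BLM+HBO mice 1 and 3 lay below every BLM mouse and mouse 2 within the BLM range. Bmper fell by 0.94 on the log2 scale (SE 0.40), with an edgeR P of 0.0421, an adjusted P of 0.459 and a DESeq2 P of 0.0694. Without BLM+HBO mouse 2 the log2 fold change was -2.01 for Nog and -1.61 for Bmper. The Nog call was lost without BLM mouse 1 (edgeR P of 0.0626), BLM mouse 3 (0.0739) or BLM+HBO mouse 3 (0.073). The Bmper call was lost without BLM mouse 1 (0.119), BLM mouse 2 (0.0723), BLM+HBO mouse 1 (0.138) or BLM+HBO mouse 3 (0.144), and with robust estimation (0.066).

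Fstl1, a secreted follistatin-like glycoprotein that binds BMP4, was at 921, 690, 538 and 444 CPM in BLM and 214, 506 and 321 CPM in BLM+HBO. It fell by 0.90 on the log2 scale (SE 0.32), with an edgeR P of 0.0176 and an adjusted P of 0.423. Fstl3, which like follistatin binds activins, had 30.9, 23.7, 18.3 and 15.6 CPM in BLM and 9.05, 15.3 and 16.2 CPM in BLM+HBO. BLM+HBO mouse 3 exceeded BLM mouse 4 for Fstl3, so its groups overlapped. Fstl3 fell by 0.71 on the log2 scale (SE 0.27), with an edgeR P of 0.0268 and an adjusted P of 0.438. The Fstl1 call was lost without BLM+HBO mouse 1 (edgeR P of 0.0601) or 3 (0.0549), and the Fstl3 call without BLM mouse 1 (0.0771) or 2 (0.0562) or BLM+HBO mouse 1 (0.0936).

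Of 9 tested BMP ligands, Gdf6 alone was called. Gdf6, a BMP family member of skeletal and eye development, was at 13.5, 9.75, 7.69 and 3.90 CPM in BLM and 1.49, 5.55 and 3.60 CPM in BLM+HBO. It fell by 1.29 on the log2 scale (SE 0.49), with an edgeR P of 0.0250 and an adjusted P of 0.438. The Gdf6 call was lost without BLM mouse 1 (0.0735) or 2 (0.0503) or BLM+HBO mouse 1 (0.0704) or 3 (0.058), as edgeR P values. Bmp3, which lacks classical BMP activity, had a log2 fold change of 0.52 (SE 0.18) and an edgeR P of 0.0177, under the fold threshold. It was past both thresholds without BLM+HBO mouse 2, at 0.70 with a P of 0.00185, and without BLM mouse 2, at 0.61 with a P of 0.0128 by edgeR. Among the 4 tested genes of the activin list, 0 were called, and besides Inhba and Inhbb they were Gdf11 (-0.25, SE 0.24) and the inhibin α subunit Inha (-0.06, SE 0.31), as log2 fold changes.

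Receptors, SMADs and target genes gave 0 calls by edgeR among 12, 10 and 7 tested genes. At an unadjusted P below 0.05 by edgeR the numbers were 1, 2 and 2, where 10.7% of all tested genes were. The median log2 fold changes of the lists were 0.05, -0.10 and -0.06. Acvr1, a type I receptor for BMPs, averaged 44.4 ± 5.84 CPM (SD, n = 4) without HBO, against 34.5 ± 4.69 CPM (SD, n = 3) with it, and its groups did not overlap (log2 fold change -0.36, SE 0.14). Smad1, which carries the BMP signal to the nucleus, averaged 60.2 ± 4.37 (SD, n = 4) against 47.0 ± 6.4 CPM (SD, n = 3), also without overlap (log2 fold change -0.36, SE 0.12). Smad9, of the same class, had a log2 fold change of 0.51 (SE 0.22), the opposite sign. Hey1, a target shared by BMP and Notch signalling, averaged 62.3 ± 4.02 (SD, n = 4) against 79.4 ± 7.67 CPM (SD, n = 3), with a log2 fold change of 0.35 (SE 0.11). The homeobox gene Msx1 averaged 9.53 ± 1.27 (SD, n = 4) against 6.56 ± 1.53 CPM (SD, n = 3), with a log2 fold change of -0.54 (SE 0.22), and Id3 had -0.25 (SE 0.13). Thus target genes at an unadjusted P below 0.05 lay in both directions, and with all 7 mice these differences stayed under the fold threshold. Msx1 was past both thresholds without BLM+HBO mouse 2 (log2 fold change -0.63, edgeR P of 0.0351), BLM+HBO mouse 3 (-0.64, 0.0349) or BLM mouse 4 (-0.61, 0.0288). Bambi, a decoy receptor for the family, had a log2 fold change of 0.45 (SE 0.23) with all mice and 0.70 without BLM+HBO mouse 2, past both thresholds at an edgeR P of 0.00345. In all, 4 of the 54 tested genes were lower and 3 higher without overlap between the groups, against 4.72% and 4.05% of all tested genes.

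**Figure D3:**
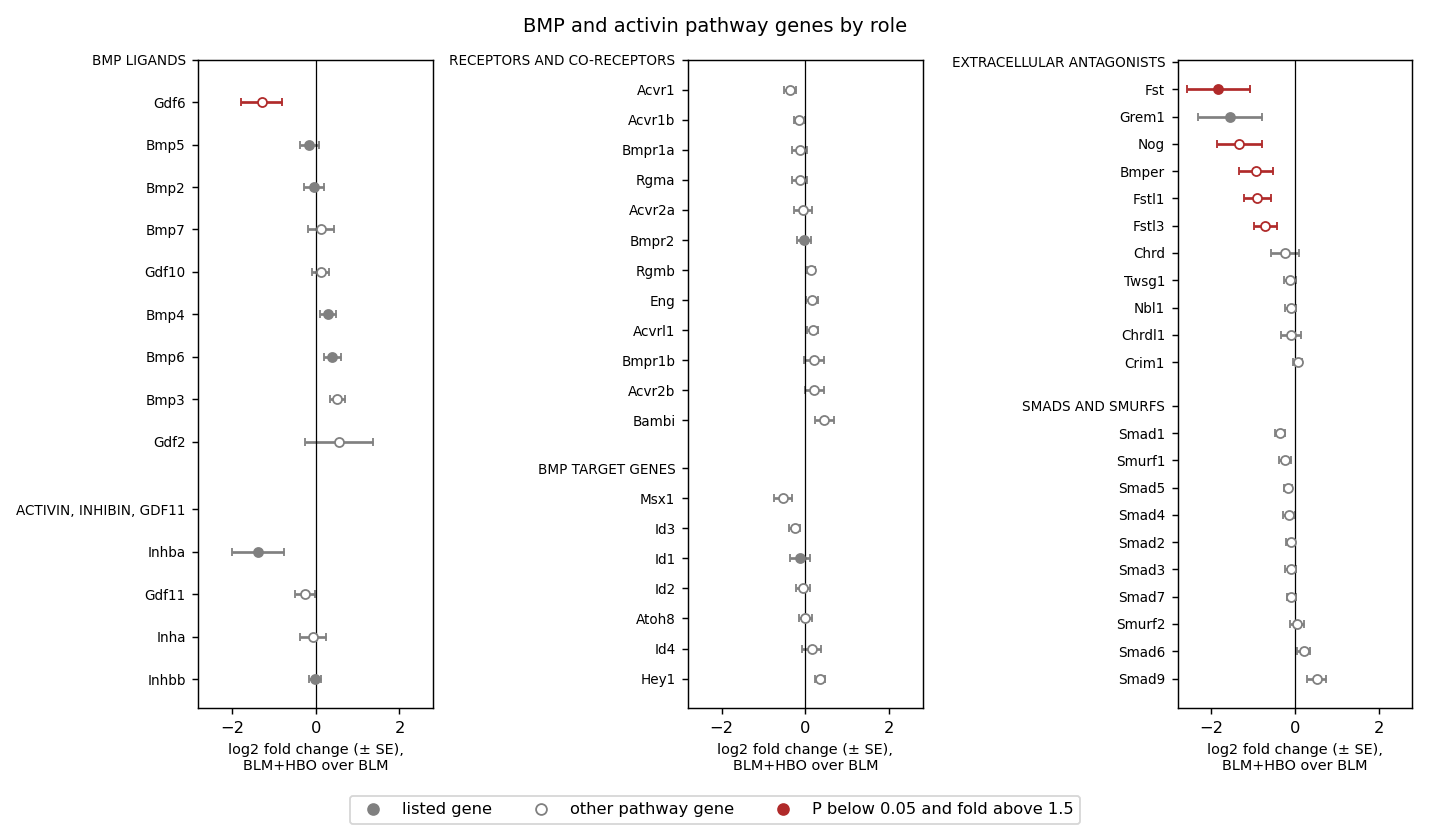
Log2 fold change (BLM+HBO over BLM, bars ± SE from edgeR) of 53 tested pathway genes by role, with the 10 listed genes as filled points and the other genes as open points. Red marks the 6 genes past both thresholds, all below 0, of which 5 were antagonists.

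Summed fibroblast marker levels were lowest in BLM+HBO mice 1 and 3, as were Fst, Inhba and Grem1. Among the BLM mice, Fst, Fstl1, Fstl3 and Gdf6 fell from mouse 1 to mouse 4 in the order of the fibroblast sums. Inhba, Grem1, Nog and Bmper did not keep that order. BLM mouse 1 had the highest fibroblast sum and the highest Fst, Inhba and Grem1. BLM mouse 2 had the lowest Inhba and Grem1 but a fibroblast sum of 8170 CPM, above those of BLM mice 3 and 4. In bulk tissue, fewer cells of a type and less RNA per cell cannot be told apart. The 10 fibroblast markers, none at 0 in any mouse, summed to between 6705 and 10810 CPM in BLM and to 2461, 7141 and 3964 CPM in BLM+HBO mice 1, 2 and 3. Most of each sum came from Col1a1, Col1a2 and Col3a1, at 3133, 3039 and 2821 CPM in BLM mouse 1. Of the 10 fibroblast markers 6 were called lower (Col1a1, Col1a2, Col3a1, Dcn, Lum and Cthrc1), 9 were below 0 and their median log2 fold change was -0.73. Of all tested genes, 2.89% were called lower, 3.40% were called higher and 48.8% were below 0. Mesothelial markers summed to between 422 and 715 CPM in BLM and to 254, 488 and 126 CPM in BLM+HBO, with Msln and Wt1 called lower out of 5. The 7 alveolar macrophage markers summed to 637 to 2056 CPM in BLM and 588 to 741 CPM in BLM+HBO, with overlap. Of the 6 tested, Marco and Chil3 were called lower and Ear1 higher. The 8 markers of other macrophages and monocytes summed to 1213 to 1877 CPM in BLM and 739 to 1199 CPM in BLM+HBO without overlap. Endothelial markers differed little in sum, from 3401 to 4256 CPM in BLM and from 3667 to 4296 CPM in BLM+HBO. By edgeR 0 of the 10 were called, and 9 had log2 fold changes above 0, with a median of 0.17 over the list. Vwf, at 915 to 1110 CPM in BLM and 643 to 839 CPM in BLM+HBO, was lower without overlap (log2 fold change -0.41, SE 0.14). The endothelial sum thus joins markers of opposite direction. AT2 markers summed to 8931 to 16327 CPM in BLM and to 24096, 11350 and 27865 CPM in BLM+HBO mice 1, 2 and 3, with Sftpa1 called higher out of 7. Airway markers summed to 5689 to 11980 CPM in BLM and to 14528, 9496 and 19845 CPM in BLM+HBO, with Scgb1a1 and Cyp2f2 called higher out of 6. Smooth muscle markers summed to 605 to 912 CPM in BLM and to 500, 739 and 569 CPM in BLM+HBO, with Acta2 called lower out of 6. BLM+HBO mice 1 and 3 thus lay above all BLM mice for the AT2 and airway sums and below them for the smooth muscle sum. For both sums of fibroblast and mesothelial markers, BLM+HBO mice 1 and 3 were below all BLM mice, as for Fst, Inhba, Grem1, Nog, Bmper, Fstl1 and Gdf6. Without BLM+HBO mouse 2, 25.2% of all tested genes had groups that did not overlap, in either direction. The part of these cell types in the differences was not tested.

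**Figure D4:**
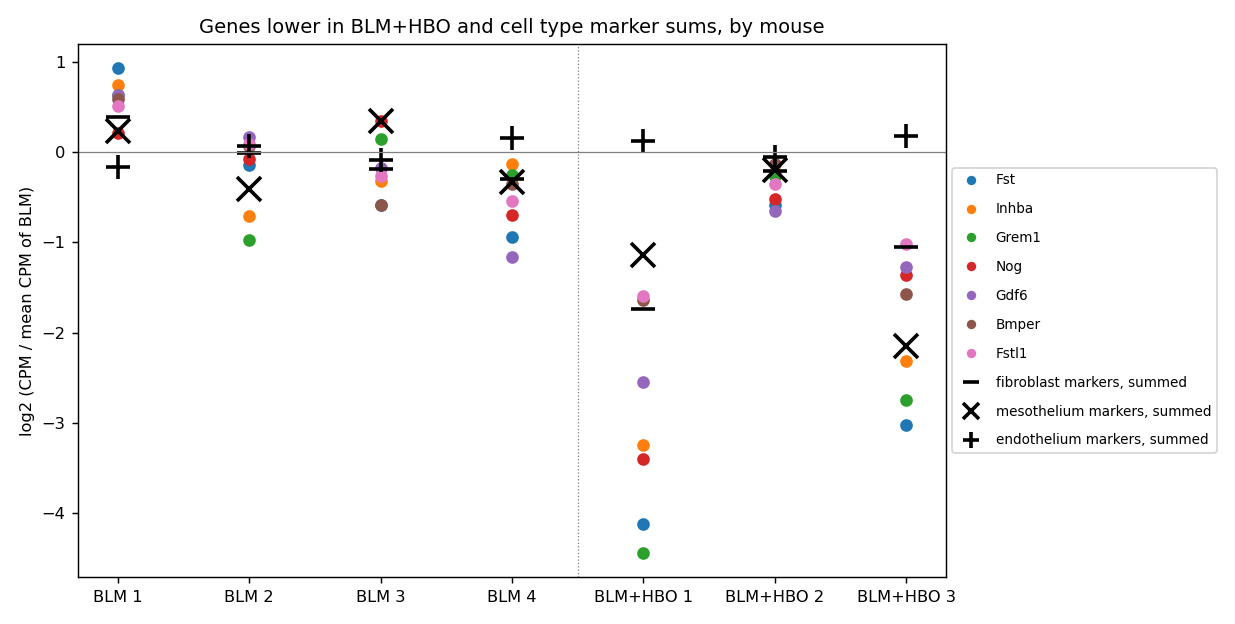
Levels of 7 pathway genes and of 3 summed marker lists in each mouse, as log2 of CPM over the mean CPM of BLM, with 0 the BLM mean. In BLM+HBO mice 1 and 3 the genes and the fibroblast and mesothelial sums lay below all BLM mice. The endothelial sum, in which Vwf was lower and 9 markers had log2 fold changes above 0, stayed near 0 in all 7.

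The genes closest in pattern were sought among 15795 tested genes with a mean of at least 1 CPM, by the root mean square difference of log2 CPM centred over the 7 mice. For Fst, whose own root mean square around its mean was 1.61, they were Megf10 (0.22), Wnt10a (0.33) and Gm26703 (0.34). Inhba (1.28) was nearest to Thbs2 (0.16), Wnt10a (0.21) and Gcnt4 (0.22), and Grem1 (1.66) to Acsl6 (0.33), Wnt10a (0.42) and Cemip (0.42). Wnt10a, a secreted WNT ligand, thus stood in all 3 lists. Wnt10a measured 6.44, 3.10, 3.29 and 2.90 CPM in BLM and 0.266, 3.54 and 0.637 CPM in BLM+HBO, again low in BLM+HBO mice 1 and 3. Thbs2, the matrix protein thrombospondin-2, measured 79.9, 37.0, 41.8 and 40.9 CPM in BLM and 4.95, 37.5 and 11.5 CPM in BLM+HBO. These likenesses describe 7 libraries and carry no test.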

How the data were processed

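RNA-seq of 7 mouse lungs (4 BLM, 3 BLM+HBO) was used. Reads were trimmed (Trim Galore) and aligned to GRCm38 (Hisat2) by the authors, who deposited raw counts per gene from featureCounts at default settings, under which strand is ignored and reads shared by genes are left out. The submitters' processing notes give version 2.2.0 for both Hisat2 and featureCounts, whereas the supplementary methods give another version for featureCounts. The gene length used per kilobase was also deposited. Symbols came from GENCODE vM21.

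Low counts were removed by filterByExpr (thresholds 10 and, in total, 15), libraries were scaled by TMM (factors 0.964 to 1.04) and genes were tested with edgeR 4.0.16 under R 4.3.3 (quasi-likelihood, group only), with Benjamini-Hochberg adjustment over 17465 genes. DESeq2 1.42.0 and limma 3.58.1 were alternatives. A call needed an unadjusted P below 0.05, as in the study, and a fold change above 1.5. Each mouse was 1 replicate. Code was tested on simulated data.

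The 10 genes, the pathway and marker lists and the tests were chosen with earlier results of these data known. All 10 genes, pathway genes past both thresholds, otherwise up to 3 further genes of lowest P per list, the nearest 3 genes to the 3 members of lowest P and cell type markers were named. The values of 1 pathway gene are not reported here, though it is included in the counts.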

Additional observations from a re-analysis of the deposited data

How the results depend on the processing

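The 1098 calls over all tested genes became 1940 without the filter on low counts, 509 at a fold above 2, 319 at a P below 0.01, and 659 to 1914 when single mice were left out. The 1 member called became 0 with DESeq2, with robust estimation and at a P below 0.01, 3 with limma and without the filter, and 0 to 4 when single mice were left out. The 6 pathway calls became 3 at a fold above 2, 0 at a P below 0.01, and 1 to 14 when single mice were left out. Members without overlap numbered 0 to 4 when single mice were left out (4 without BLM+HBO mouse 2, where 25.2% of all tested genes did not overlap). Log2 fold changes near 0 turned sign. When single mice were left out, Bmp2 ran from -0.26 to 0.07, Bmpr2 from -0.21 to 0.06, Inhbb from -0.08 to 0.08 and Id1 from -0.31 to 0.03. Bmp2 had 0.07, 0.06 and 0.02 without BLM mouse 1 or BLM+HBO mouse 1 or 3. Bmpr2 had 0.04, 0.02, 0.01 and 0.06 without BLM mouse 1 or 2 or BLM+HBO mouse 2 or 3, Inhbb 0.01 with upper-quartile factors and 0.03, 0.06 and 0.08 without BLM mouse 2 or 3 or BLM+HBO mouse 1, and Id1 0.03 without BLM mouse 3. Of the other single-gene values, 181 kept direction and side of the thresholds, 24 lost the call and 8 gained it. The cause was not tested. The deviations of mice with the same number had correlations of -0.00797, -0.066 and 0.161, and those of mice with different numbers -0.179 to 0.165. So few mice cannot decide whether the numbers pair them. With the replicate number as a block, 1258 genes, 1 member and 7 pathway genes were called. In that fit Bmp4 had a log2 fold change of 0.46, under the fold threshold, with an edgeR P of 0.00636 and an adjusted P of 0.352.

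With 3 and 4 mice per group, intervals on the log2 fold changes of Fst, Inhba and Grem1 are wide, and their size depends on single mice. When single mice were left out, the values ran from -3.45 to -1.31 for Fst, -2.70 to -0.93 for Inhba and -3.32 to -1.04 for Grem1. The largest falls came without BLM+HBO mouse 2. The smallest came without BLM mouse 1 for Fst and without BLM+HBO mouse 1 for Inhba and Grem1. Labels do not say whether mice were littermates or libraries made together, so P values measure only the spread between these lungs.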

Other observations

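The 16 pathway genes below the filter on low counts were Bmp8a, Bmp8b, Bmp10, Bmp15, Gdf5, Gdf7, Inhbc, Inhbe, Mstn, Nodal, Acvr1c, Chrdl2, Sost, Sostdc1, Cer1 and Msx2. Bmp10, a BMP made in the heart atria, had 0 counts in 6 mice and 3 counts in BLM+HBO mouse 2. Inhbe, a subunit made mainly in liver, and the nodal antagonist Cer1 had 0 counts in all 7 mice. Chrdl2, a chordin-like antagonist, reached 0.733 CPM in BLM and 0.574 CPM in BLM+HBO. Gdf2, the ligand BMP9, passed the filter with only 20, 7, 11 and 9 counts in BLM and 26, 31 and 1 in BLM+HBO. Its log2 fold change was 0.56 (SE 0.81), with an adjusted edgeR P of 0.838. Without BLM+HBO mouse 3, the mouse with 1 count, Gdf2 was past both unadjusted thresholds at 1.15 with an edgeR P of 0.0474.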
